A study of Arabidopsis thaliana with 2 samples.

Results

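The WRKY genes of Arabidopsis thaliana were followed in RNA of the root tip from the wild-type accession Col and from atphb3, a mutant named for PROHIBITIN 3. Members were chosen by name: a locus entered when the protein name in the deposited table contains "WRKY". This gave 60 of 22937 loci, with the reads of all transcripts of a locus summed. Each group held 1 library of tips of primary roots, from seedlings kept 3 days in the cold and then grown on Murashige and Skoog medium at 20 °C, in days of 16 h and nights of 8 h. The labels give no allele or genotype beyond the name atphb3, and no time of harvest. One sentence of the extraction protocol also names shoots.

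There were thus no replicates and no test across genotypes. Col held 7451022 reads and the other library 7384348. PHB3 itself had 915 and 863 reads, a ratio of 0.952 (0.866 to 1.05), so PHB3 mRNA could not serve to check the mutant label, and "the library labelled atphb3" is written throughout. Levels are read counts per 1000000 reads of the library (CPM), and paired values are given for Col first. A locus is called measured when it had 50 or more reads in at least 1 library. It is called above or below 2-fold when its level in the library labelled atphb3 was at least 2-fold higher or lower than in Col. Marker genes of tissues differed between the libraries. Of all measured loci, 9.74% lay above 2-fold and 10.1% below. Summed over 7 root hair markers the level was 441 and 909 CPM, with 4 of 7 measured genes above 2-fold (LRX1, LRX2, RHD6 and COBL9). Over 5 phloem markers it was 302 and 93.7 CPM, with SUC2 and SEOR1 as the 2 of 3 measured genes below 2-fold. The other measured phloem gene, CALS7, had 270 and 272 reads. Of the unmeasured ones, NAC086 had 38 and 41 reads and APL 4 and 1. Over 7 leaf markers the level was 163 and 60.9 CPM, with all 3 measured genes (GAPB, RBCS1A and PSAD-1) below. Of the unmeasured leaf markers, RBCS1B had 19 and 0 reads, RBCS2B 28 and 3, RBCS3B 18 and 1, and RCA 28 and 31. Xylem markers, 638 and 385 CPM, had 1 of 6 below (XCP2). Root cap markers, 16.9 and 35.3 CPM, had 1 of 2 measured genes above (BRN2). Endodermis markers, 254 and 329 CPM, had 1 of 3 above (SCR), and stem cell niche markers, 22.7 and 56.7 CPM, 2 of 3 (WOX5 and PLT1). Of these genes beyond 2-fold, BRN2 and WOX5 reached 50 reads in the library labelled atphb3 alone, and RBCS1A in Col alone. The part of tissue make-up in the WRKY values was not tested, and in whole root tips fewer cells of a type and less RNA per cell cannot be told apart.

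WRKY proteins are plant transcription factors that share a DNA-binding domain of a short invariant peptide, WRKYGQK, followed by a zinc finger. They bind W boxes, DNA elements with the core TTGAC, and many WRKY genes carry W boxes in their own promoters. The family is best known from defence, where MAP kinases and salicylic acid act on it, and from leaf senescence. In roots, members act in phosphate uptake, root hair growth, auxin responses and stress. WRKY40 is also known to bind genes for mitochondrial proteins and to hold down alternative oxidase. By structure the family is divided into subgroup I, with both an N-terminal and a C-terminal WRKY domain, subgroups IIa to IIe, with a single domain, and subgroup III, whose zinc finger differs.

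The coding sequence of the peptide is shown for the members furthest apart in the libraries, for WRKY65, the most abundant one, and for both members with a variant peptide. It was read from RefSeq's annotation of TAIR10.1, 5′ to 3′ on the coding strand. Capitals mark the 21 bases that encode the peptide, the coordinates are those of the capitals, and 6 coding bases are given on each side.
WRKY28 (subgroup IIc, chr4:10062149-10062169, plus strand): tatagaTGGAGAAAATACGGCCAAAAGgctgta
WRKY48 (subgroup IIc, chr5:20091645-20091665, plus strand): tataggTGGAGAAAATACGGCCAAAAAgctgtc
WRKY40 (subgroup IIa, chr1:30384789-30384809, plus strand): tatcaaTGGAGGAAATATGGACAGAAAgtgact
WRKY57 (subgroup IIc, chr1:26056595-26056615, minus strand): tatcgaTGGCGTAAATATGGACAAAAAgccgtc
WRKY42 (subgroup IIb, chr4:2220298-2220318, plus strand): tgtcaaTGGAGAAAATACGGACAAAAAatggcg
WRKY7 (subgroup IId, chr4:12572887-12572907, plus strand): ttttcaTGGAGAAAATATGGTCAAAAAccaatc
WRKY75 (subgroup IIc, chr5:4150786-4150806, minus strand): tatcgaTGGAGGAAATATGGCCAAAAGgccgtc
WRKY3 first copy (subgroup I, chr2:1015668-1015688, minus strand): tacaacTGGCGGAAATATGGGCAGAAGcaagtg
WRKY3 second copy (subgroup I, chr2:1015070-1015090, minus strand): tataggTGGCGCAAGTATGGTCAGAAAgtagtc
WRKY26 first copy (subgroup I, chr5:2204897-2204917, plus strand): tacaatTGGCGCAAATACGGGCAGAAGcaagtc
WRKY26 second copy (subgroup I, chr5:2205345-2205365, plus strand): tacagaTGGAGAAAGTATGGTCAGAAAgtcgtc
WRKY65 (subgroup IIe, chr1:10236922-10236942, plus strand): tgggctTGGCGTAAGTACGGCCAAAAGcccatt
WRKY50 (subgroup IIc, chr5:9147579-9147599, minus strand): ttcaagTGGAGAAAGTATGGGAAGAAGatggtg
WRKY51 (subgroup IIc, chr5:25908864-25908884, plus strand): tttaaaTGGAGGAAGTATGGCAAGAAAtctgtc
Of the 60 loci, 48 encoded the peptide once, 10 carried 2 copies and 2 none. All 10 with both copies belonged to subgroup I, whose remaining member here is WRKY10. WRKY50 and WRKY51 were the 2 members with WRKYGKK in place of WRKYGQK. The 2 loci without the peptide were AT4G31805, which the table names a WRKY family factor, and AT5G35738, which it describes as a pseudogene similar to a tobacco WRKY gene. They had 0 and 2 reads, and 12 and 8 reads, so neither weighed on the values below.

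Summed over all 60 loci, WRKY transcripts were less abundant in the library labelled atphb3. Their reads summed to 14868 and 12177, or 1995 and 1649 CPM. The ratio was 0.826, with a 95% counting interval of 0.807 to 0.846. Such intervals are exact binomial (Clopper-Pearson) intervals given the summed reads of both libraries. They cover counting error alone and compare these libraries, not the genotypes. The deficit of 346 CPM was the balance of 35 loci that were lower by 551 CPM together and 25 that were higher by 205 CPM.

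The largest deficits were those of 3 abundant genes. WRKY65 stood at 269 and 173 CPM, WRKY3 at 108 and 36.7 CPM and WRKY7 at 123 and 53.6 CPM. Without WRKY65 the family ratio was 0.855 (0.833 to 0.877), and without these 3 genes together it was 0.926 (0.902 to 0.952). As the 3 genes were picked for their deficits, leaving them out could only raise the ratio. In the other direction, WRKY6 was 50.3 CPM higher, WRKY48 34.1 CPM and WRKY33 29.0 CPM. The family was thus lower as a sum while these 3 members were higher.

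Of the 60 WRKY loci 37 were measured, and of all 22937 loci 12931. Log2 ratios are those of the library labelled atphb3 over Col after adding 0.5 reads to each count. Of the 37 measured members, 4 lay above 2-fold and 5 below, beside a background of 9.74% and 10.1% of all measured loci. For the family these counts are 10.8% and 13.5%, close to the background. The remaining 28 lay within 2-fold.

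The smaller differences leaned one way. Of the 37 measured members, 25 had a log2 ratio below 0, which is 67.6% beside 45.4% of all measured loci. The counting interval lay wholly below 1 for 21 members, or 56.8% beside 30.1%, and wholly above 1 for 12, or 32.4% beside 37.7%. The median log2 ratio was -0.39, with quartiles of -0.66 and 0.28, beside a median of 0.08 over all measured loci. The family's mean of -0.10 was nearer to 0, with WRKY28 far above the rest. Loci with the word NAC or MYB in the protein name had medians of 0.06 over 41 measured NAC loci and 0.03 over 72 measured MYB loci. Whether each of these loci encodes a transcription factor of that family was not checked. No test was made of these differences.

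**Figure D1:**
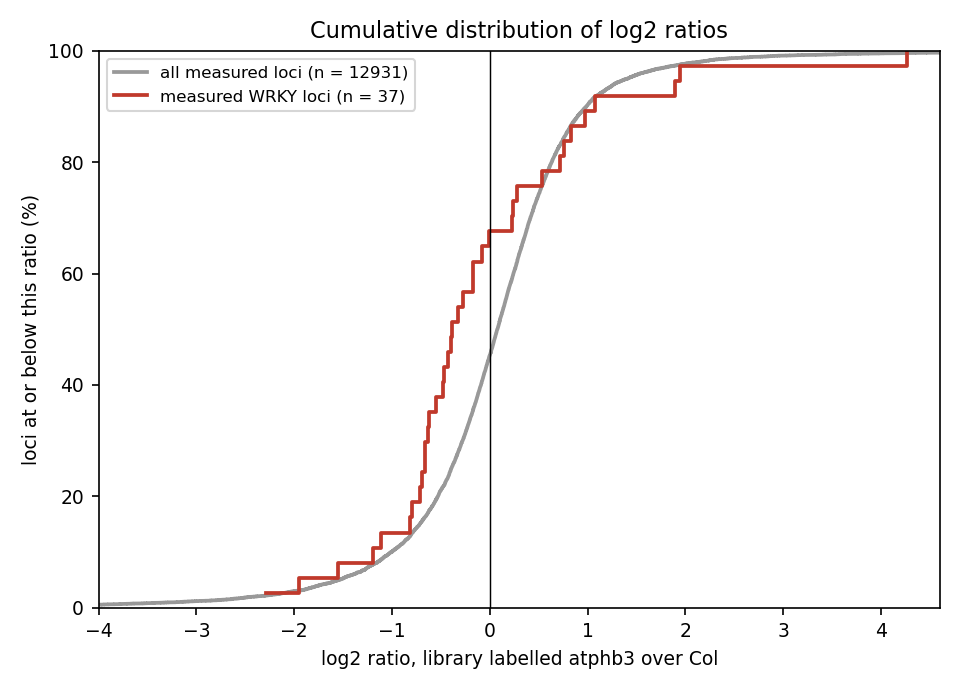
Cumulative distribution of log2 ratios, library labelled atphb3 over Col. The x axis is the log2 ratio, the y axis the percentage of loci at or below it, for the 37 measured WRKY loci (red) and all 12931 measured loci (grey). The WRKY curve runs above the grey one through the middle of the range, crossing 0 at 67.6% against 45.4%, and lies near it in both tails.

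Entry into the measured set depended partly on the difference itself. WRKY28, WRKY40, WRKY57 and WRKY22 reached 50 reads in the library labelled atphb3 alone, and WRKY26, WRKY69 and WRKY15 in Col alone. Over the 30 members with at least 50 reads in each library, WRKY48 was the 1 member above 2-fold and WRKY75, WRKY3, WRKY7 and WRKY42 were the 4 below. These are 3.33% and 13.3%, beside 6.76% and 6.97% of all 11194 loci that met the same limit. Of the 30 members 22 had a log2 ratio below 0, or 73.3% beside 45%, and the median was -0.39, beside 0.07 over those loci. Split by reads over both libraries, 13 of 17 members with 500 or more and 11 of 16 with 100 or more but under 500 were below 0, beside 44.0% and 46.5% of all measured loci of those depths. Of the 4 members under 100 reads, 1 was below 0.

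**Figure D2:**
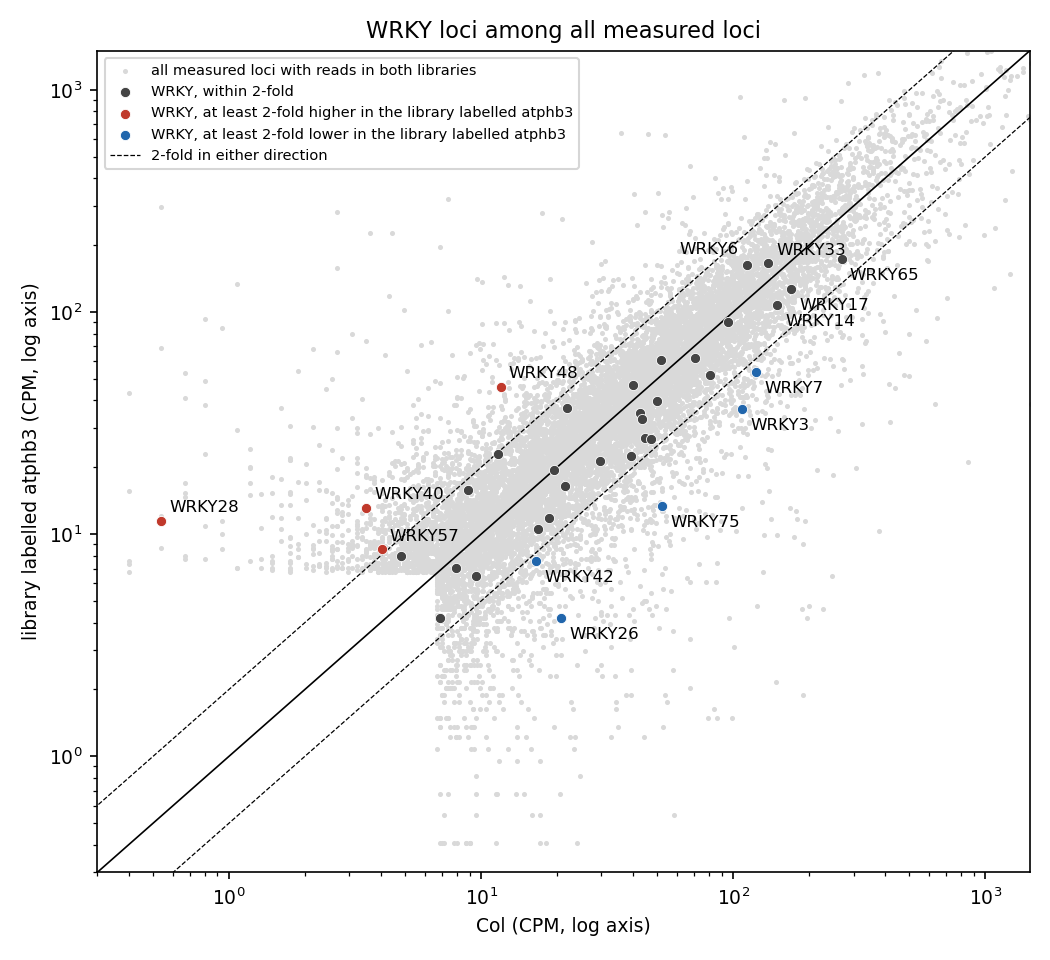
Level of each measured locus in the 2 libraries, in CPM on log axes. Grey points are all measured loci with reads in both libraries, and some of the most and least abundant lie beyond the axes. Large points are WRKY loci, coloured by their 2-fold class. The 4 loci above the upper dashed 2-fold line include WRKY28, at 0.537 and 11.5 CPM, and the 5 below the lower line include WRKY3, at 108 and 36.7 CPM.

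Levels of different genes were compared per transcript length, with the authors' RPKM, reads scaled to transcript length and library total. WRKY65 was first in both libraries, at 268 and 173 RPKM, and WRKY17 second, at 129 and 95.7 RPKM. WRKY7, WRKY36 and WRKY14 followed in Col, at 81.8, 81.6 and 77.8 RPKM. In the library labelled atphb3, WRKY33 and WRKY6 held places 3 and 4, at 87.5 and 82.1 RPKM. WRKY33 drives camalexin synthesis and resistance to necrotrophic fungi, and WRKY6 acts in senescence and phosphate transport.

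Places further down differed more between the libraries. Among the 37 measured members WRKY75 held place 7 in Col and 20 in the other library, and WRKY3 places 9 and 21. WRKY26 held places 22 and 37, the last. WRKY48, by contrast, stood at places 31 and 15 and WRKY24 at 24 and 12. WRKY28, last in Col at 0.432 RPKM, stood at place 28 in the other library, at 9.27 RPKM.

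**Figure D3:**
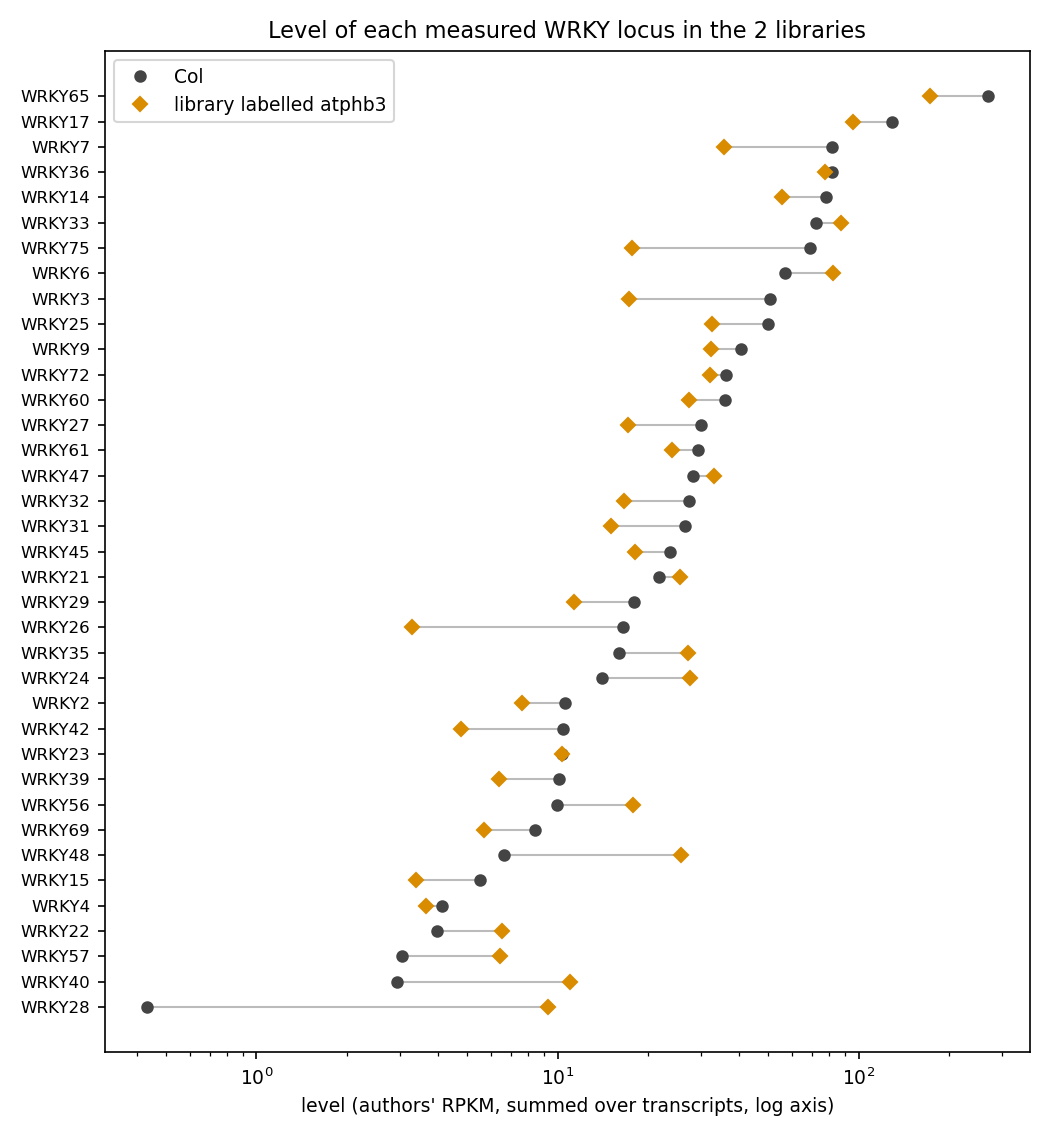
Level of each of the 37 measured WRKY loci, in the authors' RPKM on a log axis, ordered by the level in Col. Circles are Col and diamonds the library labelled atphb3, 1 library each. The long lines belong to WRKY28, WRKY48 and WRKY40, which were higher in the library labelled atphb3, and to WRKY26, WRKY75 and WRKY3, which were lower.

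Among measured members, subgroup IIc held both of the highest ratios, those of WRKY28 and WRKY48, and the second lowest, that of WRKY75. Of its 15 listed loci, 8 were measured, with 3 above 2-fold, 1 below, and a median log2 ratio of 0.90. WRKY28 and WRKY57 were measured through the library where they were high. Over the 6 members with 50 or more reads in each library, 1 lay above 2-fold and 1 below, 3 had a log2 ratio below 0, and the median was 0.41. WRKY28 (AT4G18170, chromosome 4, 10061373 to 10062841, plus strand) activates the salicylic acid gene ICS1. Its position, like those below, is that of the deposited table, whose genome build is not named. It had 4 and 85 reads, 0.537 and 11.5 CPM, which is 21.4-fold more in the library labelled atphb3 (8.07 to 80.5). With 4 reads in Col the size of this ratio is loose, but the lower end of its interval is far above 2-fold.

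WRKY48 (AT5G49520, chromosome 5, 20090776 to 20093346, plus strand) is a stress-induced gene that restrains basal defence. It had 89 and 340 reads, 11.9 and 46.0 CPM, and was 3.85-fold higher (3.04 to 4.92). It is the member above 2-fold that was well covered in both libraries. WRKY57 (AT1G69310), known from drought tolerance, had 30 and 63 reads, 2.12-fold more (1.35 to 3.39). Its interval reaches below 2-fold, and with totals that left out the 10 most abundant loci its log2 ratio came to just under 1. Both of its listed transcripts were higher, at 2 and 8 reads and at 28 and 55.

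WRKY24 and WRKY56 were higher by less than 2-fold. WRKY24, just inside the limit, had 87 and 170 reads, and its log2 ratio was 0.98 against 1.07 for WRKY57 just outside. On the lower side, WRKY42 of subgroup IIb was the member nearest the limit from outside, at -1.12. WRKY56 had 66 and 117 reads and a log2 ratio of 0.83. WRKY23, an auxin-responsive gene of root development, had 145 and 143 reads and a ratio of 0.995 (0.784 to 1.26).

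WRKY75 (AT5G13080, chromosome 5, 4149740 to 4151150, minus strand) was the 1 member of the subgroup below 2-fold. It is induced by phosphate starvation and limits the formation of root hairs. It had 388 and 99 reads, 52.1 and 13.4 CPM, and was 3.88-fold lower (3.11 to 4.89). WRKY45, a close relative that activates a phosphate transporter, had 161 and 122 reads and a ratio of 0.765 (0.599 to 0.973). The root hair markers, all 7 of which had a log2 ratio above 0, differed in the other direction from WRKY75. Any link between them was not tested.

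**Figure D4:**
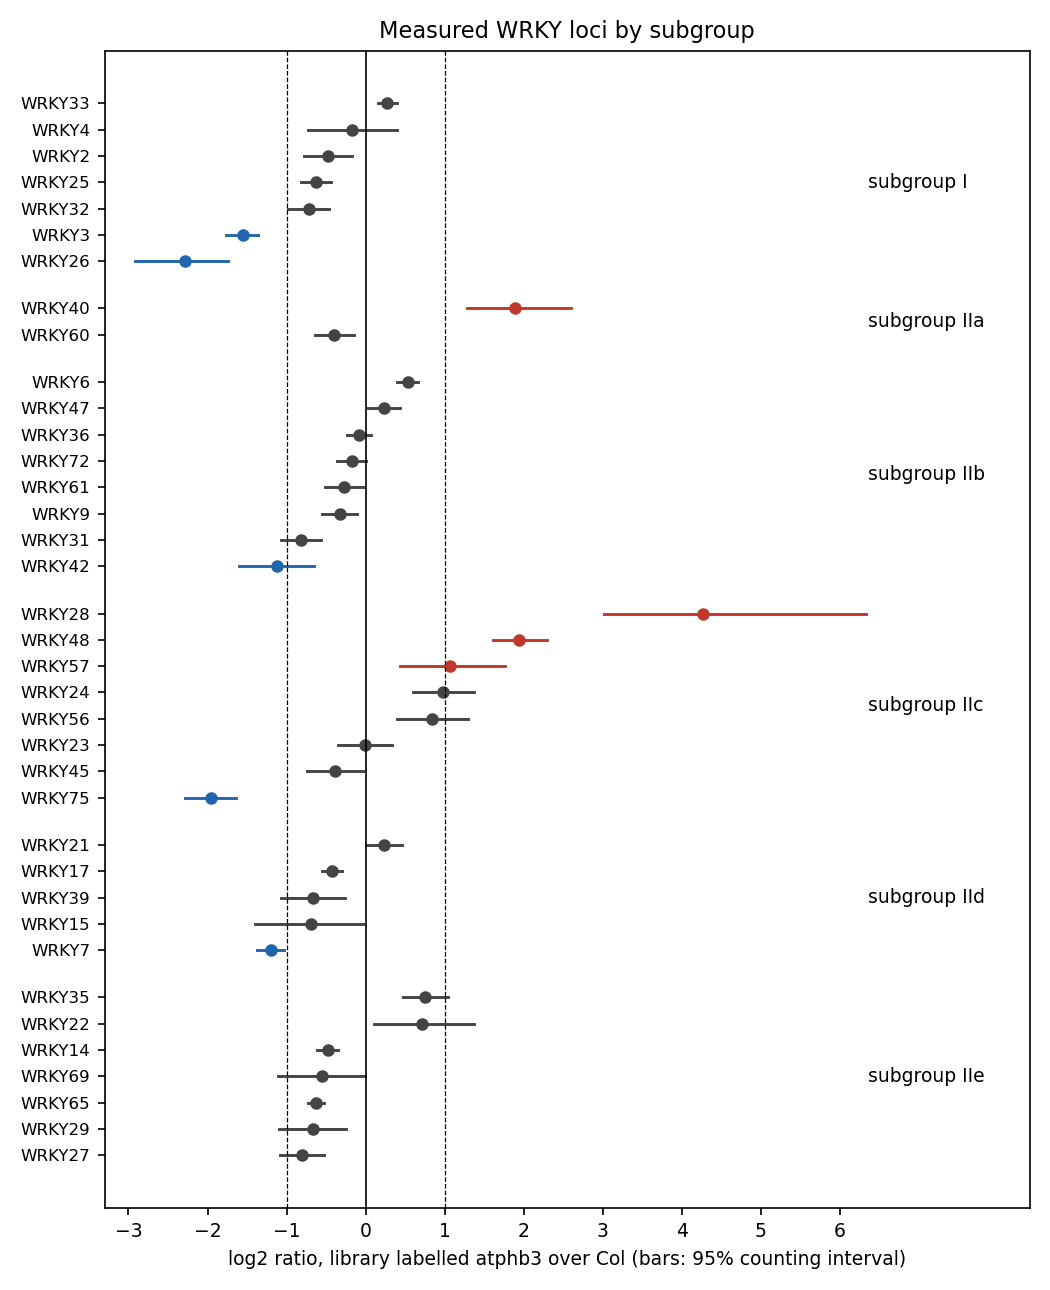
Log2 ratio (library labelled atphb3 over Col) of each measured WRKY locus, by subgroup. Points are the ratio with 0.5 reads added, bars the 95% counting interval without that addition, and dashed lines mark 2-fold. Subgroup IIc spans WRKY28 at 4.26 to WRKY75 at -1.95. In subgroup I every measured member but WRKY33 lies below 0.

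Subgroup I was mostly lower. Of 11 listed loci 7 were measured, with 0 above 2-fold and 2 below, and a median log2 ratio of -0.63. WRKY26 was measured through Col, where it was high, and over the 6 members with 50 or more reads in each library 1 lay below 2-fold and the median was -0.55. WRKY26 (AT5G07100, chromosome 5, 2204248 to 2205811, plus strand) acts with WRKY25 and WRKY33 in heat tolerance. It had 155 and 31 reads, 20.8 and 4.20 CPM, 4.96-fold lower (3.35 to 7.54). Both listed transcripts were lower, at 63 and 10 reads and at 92 and 21 reads. WRKY25 had 601 and 386 reads, 1.54-fold lower (1.36 to 1.76). WRKY33, with 1024 and 1229 reads, was 1.21-fold higher (1.11 to 1.32), so 1 of these 3 partners was higher and 2 were lower.

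WRKY3 (AT2G03340, chromosome 2, 1014350 to 1017148, minus strand) and WRKY4 are related genes of resistance to necrotrophs. WRKY3 had 806 and 271 reads, 2.95-fold lower (2.57 to 3.40). WRKY4 was far less abundant, at 59 and 52 reads, and its interval of 0.601 to 1.31 included 1. WRKY32 had 334 and 201 reads, a log2 ratio of -0.72. WRKY2, which acts in the first division of the zygote, had 220 and 157 reads, a log2 ratio of -0.47. Of the 7 measured members of this subgroup, WRKY33 was thus the single one above 0. WRKY44, known as TTG2 from trichomes and seed coat, had 5 reads in each library.

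Subgroup IIa holds 3 genes that bind one another and act in defence and abscisic acid signalling. They differed widely in depth and in ratio. WRKY40 (AT1G80840, chromosome 1, 30383691 to 30385499, plus strand) had 26 and 97 reads, 3.49 and 13.1 CPM, 3.76-fold more in the library labelled atphb3 (2.42 to 6.05). WRKY60 was lower there, at 323 and 243 reads, a ratio of 0.759 (0.640 to 0.899). WRKY18 had 6 reads in each library, too few to place it.

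WRKY40 shares 51 bases with its listed neighbour AT1G80850 on the opposite strand, which had 73 and 130 reads, and the protocols name no strand-marking kit. How many reads of the shared stretch were counted for WRKY40 was not tested. WRKY33, WRKY53 and WRKY69 also share 26 to 341 bases with a neighbour. Without these 4 the family had 3 measured members above 2-fold, 5 below and a median of -0.39.

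All 8 listed members of subgroup IIb were measured. None lay above 2-fold and 1 below, and the median log2 ratio was -0.23. WRKY6 and WRKY42 both repress PHO1, the gene that loads phosphate into the xylem. WRKY6 had 843 and 1207 reads, 1.44-fold more (1.32 to 1.58), while WRKY42 (AT4G04450, chromosome 4, 2218379 to 2221114, plus strand) had 123 and 56 reads, 2.18-fold lower (1.57 to 3.04). WRKY31 had 350 and 197 reads, a log2 ratio of -0.81.

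The other members of the subgroup differed less. WRKY47 had 384 and 447 reads, WRKY36 709 and 664 with a ratio of 0.945 (0.849 to 1.05), and WRKY72, which acts in basal resistance, 524 and 460. WRKY9 had 372 and 293 reads and WRKY61 318 and 260, with log2 ratios of -0.33 and -0.28. The counting interval of WRKY36 and of WRKY72 included a ratio of 1.

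Subgroup IId, whose members bind calmodulin, was lower in 4 of 5 measured genes, with a median log2 ratio of -0.66. WRKY15 was measured through Col, where it was high. Over the 4 members with 50 or more reads in each library, 3 were lower and the median was -0.54. WRKY7 (AT4G24240, chromosome 4, 12571766 to 12573725, plus strand) limits basal defence. It had 917 and 396 reads, 2.29-fold lower (2.04 to 2.59). WRKY17, which with WRKY11 restrains basal resistance, had 1265 and 933 reads and a ratio of 0.744 (0.683 to 0.811). WRKY11 was unmeasured and higher, at 21 and 38 reads, a ratio of 1.83 (1.04 to 3.27). WRKY39 had 139 and 87 reads and WRKY15, which acts in osmotic stress and in mitochondrial signalling, 51 and 31. WRKY21 was the 1 measured gene of the subgroup above Col, at 299 and 347 reads.

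Subgroup IIe had all 7 listed members measured and none beyond 2-fold, with 5 of 7 below 0 and a median log2 ratio of -0.55. WRKY22 and WRKY69 were each measured through the library where they were high. Over the 5 members with 50 or more reads in each library, 4 were below 0 and the median was -0.63. WRKY65 (AT1G29280, chromosome 1, 10236367 to 10237467, plus strand) had 2003 and 1280 reads, 1.55-fold lower (1.45 to 1.66). Its share of all WRKY reads was 13.5% (12.9% to 14.0%) and 10.5% (9.97% to 11.1%). WRKY14 had 1116 and 793 reads and a ratio of 0.717 (0.654 to 0.786). WRKY27, which acts in bacterial wilt, had 292 and 166 reads, with a log2 ratio of -0.80, and WRKY69 had 71 and 48.

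WRKY22 and WRKY29 act together below a MAP kinase cascade in flagellin responses, and here they differed in direction. WRKY22 had 36 and 59 reads, a ratio of 1.65 (1.07 to 2.58). WRKY29 had 125 and 78 reads, a ratio of 0.630 (0.468 to 0.842). WRKY35 was also above Col, at 163 and 273 reads, 1.69-fold (1.39 to 2.06).

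None of the 7 listed members of subgroup III, known from salicylic acid signalling and senescence, reached 50 reads. Together they had 81 and 118 reads, a ratio of 1.47 (1.10 to 1.98), and without WRKY46 the other 6 had 77 and 74 reads, a ratio of 0.970 (0.695 to 1.35). WRKY46 (AT2G46400, chromosome 2, 19043414 to 19044826, minus strand) acts in drought and iron responses. It had 4 and 44 reads, an 11.1-fold difference with a wide interval (4.04 to 42.5). WRKY53, a regulator of senescence, had 28 and 46 reads, and WRKY70, which links salicylic acid and jasmonate signalling, 39 and 23. WRKY30 had 5 and 0 reads, WRKY54 3 and 0, WRKY38 2 and 3, and WRKY67 0 and 2.

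The 23 unmeasured loci had at most 45 and 46 reads in the respective libraries, and 14 of them had fewer than 20 reads over both. At 0 reads were 3 loci in Col and 3 in the other library. A count of 0 allows up to 3 reads, or 0.403 CPM in Col and 0.406 CPM in the other library, so none of these 6 can be called absent. Besides those already named, the unmeasured loci are WRKY8, WRKY10, WRKY13, WRKY20, WRKY43, WRKY49, WRKY50, WRKY51, WRKY58, WRKY71 and WRKY74. WRKY20 had the most reads of these, 45 and 40. WRKY8, a relative of WRKY28 in subgroup IIc, had 4 and 12 reads, with an interval of 0.917 to 12.9 that included 1.

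Another 5 loci carry a WRKY symbol under another protein name and were not members. WRKY52, known as RRS1, an immune receptor with a WRKY domain, was the 1 measured, at 150 and 126 reads. WRKY1 had 23 and 8 reads, WRKY16 13 and 22, WRKY19 4 and 8, and WRKY63 5 and 1. With them the median over 38 measured loci was -0.36.

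Since WRKY factors bind W boxes and often act on each other's promoters, the 250 bases before the RefSeq gene start were searched for TTGACC and TTGACT on both strands. The windows of WRKY28 and WRKY75, which differed most in opposite directions within subgroup IIc, and of WRKY33, which has 2 matches, are shown 5′ to 3′ on the gene's strand in TAIR10.1. Capitals mark a match, written AGTCAA or GGTCAA where it lies on the other strand.
WRKY28 upstream window (chr4:10060964-10061213, plus strand): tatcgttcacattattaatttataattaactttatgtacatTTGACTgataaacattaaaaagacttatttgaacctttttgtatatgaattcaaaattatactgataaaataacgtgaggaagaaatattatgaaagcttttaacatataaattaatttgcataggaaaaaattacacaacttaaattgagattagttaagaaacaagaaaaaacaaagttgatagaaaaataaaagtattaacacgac
WRKY75 upstream window (chr5:4151202-4151451, minus strand): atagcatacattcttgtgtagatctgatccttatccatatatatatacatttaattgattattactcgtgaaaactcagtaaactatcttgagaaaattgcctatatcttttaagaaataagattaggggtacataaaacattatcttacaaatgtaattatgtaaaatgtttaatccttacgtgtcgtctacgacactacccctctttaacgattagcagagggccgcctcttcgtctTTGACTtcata
WRKY33 upstream window (chr2:16107985-16108234, plus strand): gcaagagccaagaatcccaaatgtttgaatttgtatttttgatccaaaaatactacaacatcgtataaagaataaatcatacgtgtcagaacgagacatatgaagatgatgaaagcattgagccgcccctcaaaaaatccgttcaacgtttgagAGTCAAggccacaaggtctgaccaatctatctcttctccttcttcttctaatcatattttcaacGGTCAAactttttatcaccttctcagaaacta
WRKY28 had its match 209 bases before the gene start and WRKY75 11 bases before it, and those of WRKY33 began 96 and 32 bases before it.

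A match was found in 13 of the 37 measured members, or 35.1%, beside 28.9% of 12706 measured loci and 28.4% of all 27443 protein-coding genes on the 5 chromosomes. Of the 4 members above 2-fold, WRKY28 had one, and of the 5 below, WRKY75 and WRKY26 did. WRKY40, WRKY48, WRKY57, WRKY3, WRKY7 and WRKY42 had none in this window. In the window, 2 or more matches were held by 6 measured members, WRKY15, WRKY17, WRKY29, WRKY32, WRKY33 and WRKY45, all within 2-fold, or 16.2% beside 5.95% of measured loci. Of the members named here, WRKY26, WRKY7 and WRKY45 have 1 other annotated gene reaching into the window, and its bases were not left out. For the members above or below 2-fold, the RefSeq start lies upstream of the start in the deposited table. The bases between these starts were not searched. For WRKY42 the window ends at 2218041 and the listed span begins at 2218379. A match is a description of the letters and shows no binding.

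Genes that act above WRKY factors, in a list chosen with earlier results known, differed in both directions. Of 12 MAP kinase cascade genes and VQ partners in the table, 8 were measured, 1 above 2-fold and 0 below, with a median log2 ratio of 0.15. These are 12.5% and 0%, beside 9.74% and 10.1% of all measured loci, shares that apply to the lists below as well. The counting interval lay wholly above 1 for 3 of them and wholly below 1 for 2. The gene above 2-fold was MKK5, a kinase that activates MPK3 and MPK6, with 309 and 658 reads, 2.15-fold more (1.87 to 2.47). MPK3 itself was lower, at 1224 and 668 reads, a ratio of 0.551 with an interval wholly below 1, and MPK6 had 1300 and 1275. SIB1, a VQ protein that binds WRKY33 and stimulates it, was named after its value was seen: it had 6 and 45 reads, 7.57-fold more (3.22 to 21.7), and was unmeasured.

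Among genes known as targets of WRKY factors, few defence genes were measured. Of 9 salicylic acid and defence genes in the table, 3 were measured, with 0 above 2-fold and 1 below. The one below was EDS5, the salicylic acid transporter of plastids, at 477 and 228 reads, 2.07-fold lower (1.77 to 2.44). ICS1, which WRKY28 is known to activate, had 6 and 7 reads, too few to place beside the difference of WRKY28. Of 10 camalexin and tryptophan-derived genes, 6 were measured, 0 above 2-fold and 1 below, with a median of -0.32. That gene was CYP79B3, which makes indole acetaldoxime, at 3052 and 1395 reads, 2.17-fold lower (2.03 to 2.31). PAD3, the last enzyme of camalexin synthesis and a target of WRKY33, had 182 and 130 reads, a ratio of 0.721 (0.571 to 0.908). Of the unmeasured genes of this list, CYP71A12 had 5 and 29 reads, 5.85-fold more (2.24 to 19.4). GSTF6 had 26 and 22 reads, ASA1 13 and 9, and CYP71A13 2 and 0.

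Phosphate genes, on which WRKY6, WRKY42, WRKY45 and WRKY75 act, differed in both directions. Of 8 in the table, 7 were measured, 2 above 2-fold and 1 below, with a median log2 ratio near 0. These are 28.6% and 14.3%, beside 9.74% and 10.1% of all measured loci. SPX1, a phosphate sensor gene, had 58 and 283 reads, 4.92-fold more (3.70 to 6.65), and the transporter gene PHT1;4 had 468 and 1453 reads, 3.13-fold more (2.82 to 3.48). PHO2, which limits phosphate uptake, had 6420 and 3092 reads, 2.06-fold lower (1.97 to 2.15). PHO1, the target of WRKY6 and WRKY42, had 4945 and 6583 reads, 1.34-fold more (1.29 to 1.39).

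Senescence and epidermal genes gave few measured members. In the table were 6 senescence genes, of which 3 were measured, none beyond 2-fold, and SAG21 and NYE1 had 316 and 249, and 178 and 134 reads. Of 7 genes of the epidermal TTG pathway 3 were measured, none beyond 2-fold, with WER, which sets non-hair fate, at 75 and 38 reads and GL3 at 53 and 68. Among 8 genes of the mitochondrial retrograde response, some of which WRKY40 is known to bind, 6 were measured. Of these, 5 were above 2-fold, or 83.3% beside 9.74% of all measured loci, and the median log2 ratio was 2.96. AT12CYS-2 and NDB2 were measured through the library where they were high. The 4 with 50 or more reads in each library were UPOX, OM66 and AOX1A, all above 2-fold, and ANAC017, at 1003 and 827 reads. Like the other lists, this one was chosen with earlier results known. AOX1A, the alternative oxidase gene that WRKY40 represses, had 841 and 2867 reads, 3.44-fold more (3.18 to 3.72), so that WRKY40 and AOX1A were both higher in the library labelled atphb3. Of the measured ones, the 4 with the largest ratios were AT12CYS-2, with 4 and 2204 reads, UPOX, with 55 and 2388, OM66, with 156 and 1927, and NDB2, with 15 and 74. Their relation to the WRKY values was not tested.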

How the data were processed

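Per the labels' protocols, root tip RNA was reverse transcribed from random primers and read on an Illumina sequencer, with 1 library for each of Col and atphb3. Per the file headers, the authors deposited a read count and an RPKM value for each of 26425 transcripts. The aligner, counting tool and genome build are not given in the sources used here. In the values, RPKM equalled the count divided by transcript length and column total, within 0.1% for all transcripts with reads. The authors' deposited comparison of 1 library with 1 library was not used.

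Counts were summed to 22937 loci and scaled to library totals. At these depths 1 read equalled 0.134 CPM (Col) or 0.135 CPM (atphb3). The protocols mention no molecular identifiers, and counting error is all that intervals and floors include. How reads shared by transcripts of a locus were counted is not stated, and 6 of the 60 members have several transcripts. All 60 members were found in RefSeq's TAIR10.1 annotation, and each listed span lies inside the RefSeq locus. Locus spans come from the deposited table's annotation unless TAIR10.1 is named.

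The members, the gene lists and their naming rule were chosen with earlier results of these data known. Subgroups follow the textbook classification of the family. Every measured member is named, as are, in each of the other lists, up to 4 measured genes beyond 2-fold or else its 2 most abundant, with further genes named as partners or targets of a member. Some other genes of the leaf, phloem, camalexin and retrograde lists are named too, several of them unmeasured. Alternatives covered the scaling (edgeR 4.0.16, DESeq2 1.42.0), the filter, the limit and the member rule. The calculation was run on simulated data, Poisson draws for the atphb3 to Col comparison. Of 12554 loci measured there, 199 had been changed 4-fold and all 199 were recovered. Of the unchanged loci, 2 also passed 2-fold. The changes were well beyond the 2-fold limit and the draws held counting error alone, so the run checks the arithmetic of the 2-fold calls. Variation between plants and the recovery of differences under 2-fold were not tested. Software was R 4.3.3 and Python 3.11.15, the latter with scipy 1.17.1, numpy 2.4.6 and pandas 2.3.3.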

Additional observations from a re-analysis of the deposited data

How the results depend on the processing

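The median log2 ratio of the WRKY loci stayed below 0 under each of 15 alternatives, between -0.46 and -0.10, the latter being the mean. Under TMM scaling it was -0.45, beside 0.01 over all measured loci. The count of members above 2-fold, 4 as reported, was 10 with no filter (16.7% of members, 15.9% of all loci), 1 with at least 200 reads in 1 library (4.55%, 8.61%), 2 with at least 100 reads over both libraries (6.06%, 8.92%), 8 at a limit of 1.5-fold (21.6%, 22.0%) and 1 at 4-fold (2.7%, 2.32%). The count below, 5 as reported, was 10 with no filter (16.7%, 15.6%), 3 with at least 200 reads (13.6%, 9.53%), 13 at 1.5-fold (35.1%, 18.3%) and 1 at 4-fold (2.7%, 2.99%). These shifts come from the loci admitted or the limit itself. The other alternatives gave 3 to 4 above and 4 to 6 below. Under 6 other scalings, units and pseudocounts, the log2 ratios of 11 members, those beyond 2-fold and subgroup IIa, kept within their counting interval. Totals without the 10 most abundant loci, the members without overlaps, the 5 added loci, the subgroups limited to 50 reads in each library and subgroup III without WRKY46 were chosen after seeing the data. So were WRKY65, WRKY3 and WRKY7 as the genes left out of the family ratio. No paired analysis was possible because each group has 1 library, and for the same reason no replicate could be left out. Depth limits the family most in subgroup III, where no member reached 50 reads, and in WRKY18.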
